A study of Rattus norvegicus with 24 samples.

Results

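The left ventricle of the rat was compared between a late and an early time after the spinal cord had been completely transected in its high thoracic part (spinal cord injury, SCI). The comparison holds 12 of the 24 libraries of the series, 6 collected 12 weeks after surgery and 6 collected 3 days after it, chosen by the treatment and the collection time in the labels. All rats were male Wistar rats, and the tissue was flash-frozen free wall taken at the middle of the ventricle. A sham group of 6 libraries, in which the high thoracic dura was opened and the cord left intact, was collected 7 days after surgery and serves here as the starting level. The labels give neither the age of the rats nor the hour of collection, and they name no sham group at 12 weeks, so time since injury and 12 weeks of further life cannot be told apart. The design text gives 6 samples per group without saying that each came from a different rat, so the p-values rest on the spread among these samples only, which may be partly technical.

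The heart receives its sympathetic nerve supply from neurons in the upper thoracic cord, which are driven by pathways descending from the brainstem. Transection above or at that level cuts the descending drive, while the vagus nerve, which leaves the brainstem directly, is spared. The early days after such an injury are a time of low blood pressure, slow heart rate and systemic stress, and the later weeks are known for reduced cardiac load and a smaller, remodelled ventricle. Comparing 12 weeks with 3 days sets the long-term state of the heart against its acute response.

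The deposited values are read counts per Ensembl gene ID, and neither the count table nor the gene table used for names pairs these IDs with symbols. None of the 23098 IDs could be matched, so cardiac myocyte markers and gene families were not examined, and the tissue label could not be checked against its markers. Genes are described as groups, and 4 IDs are printed. In bulk tissue of this kind, fewer cells of a type and less RNA per cell cannot be told apart.

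Depth overlapped between the groups. Libraries held 15002476 to 44709028 counts at 12 weeks and 16756399 to 48966088 at 3 days (n = 6 each, exact permutation p = 0.79, two-sided, adjusted p = 0.859 over 5 tests of single values per library). The sham libraries held 27097306 to 70340174 counts. Between 16264 and 17410 genes were detected at 12 weeks and between 16087 and 17476 at 3 days (exact permutation p = 0.859). The labels number the 12 week libraries 83 to 88 and the 3 day libraries 57 to 62, so a difference tied to these numbers cannot be told apart from the time after injury. Sham libraries carry the numbers 63 to 68, next to the 3 day group, and the 1 day libraries 77 to 82, next to the 12 week group.

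One library in each group stood apart from the other 5. The median correlation of log2 CPM (counts scaled to a common library size) with the rest of the group was 0.967 for 12 week replicate 3 and 0.977 to 0.983 for the other 12 week libraries. It was 0.971 for 3 day replicate 5 and 0.981 to 0.985 for the other 3 day libraries. For each tested gene the library farthest from its group's median was found. An equal division would give each library 16.7% of the genes. Replicate 3 was the farthest in 37.2% of the genes at 12 weeks, and replicate 5 in 36.3% at 3 days. In sham no library exceeded 19%. With 16756399 counts, 3 day replicate 5 was also the shallowest library of its group, while 12 week replicate 3 had 33248851 counts, the second most of its group, and the lowest TMM scaling factor of all 24 libraries, 0.879. Whether depth or scaling had a part in their standing apart was not tested. Main counts, spreads and large changes are also given without these libraries.

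**Figure D1:**
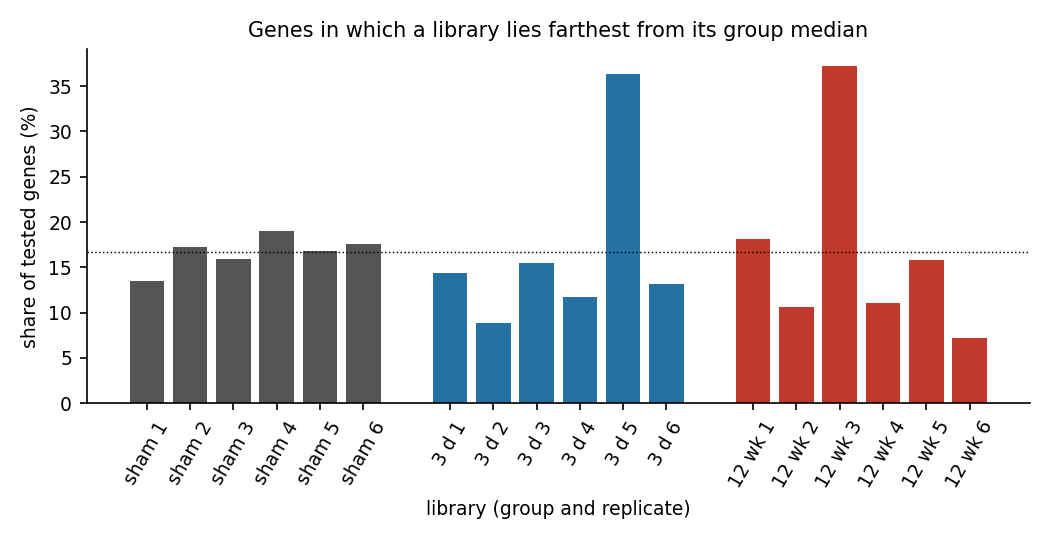
Share of the 15065 tested genes (%, vertical axis) in which each library lay farthest from the median of its own group, for the 6 libraries of sham (grey), 3 days (blue) and 12 weeks (red). The dotted line marks the equal share of 16.7%, and 12 week replicate 3 and 3 day replicate 5 rise above it to 37.2% and 36.3%.

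Nearly a balanced number of genes moved each way between the acute and the late time. At 12 weeks 2410 genes were higher and 2308 were lower than at 3 days, together 31.3% of the 15065 genes tested with edgeR's quasi-likelihood test at an adjusted p under 0.05 (Benjamini-Hochberg). The shares were 16% higher and 15.3% lower. The median log2 fold change over all tested genes was 0.001. TMM scaling assumes that most genes do not change, so this median and the near balance of directions are partly set by the scaling. Without 12 week replicate 3 and 3 day replicate 5 together, 2092 genes were higher and 2085 lower. Of the genes called with all libraries, 1886 higher and 1859 lower ones were called in the same direction without that pair, and none of either group changed sign. When only the 12 libraries of the 2 groups entered the fit, 1652 genes were higher and 1628 lower, or 23% of the 14289 genes tested. The spread estimate, the filter and the samples all differ in that fit, and their parts were not tested apart. The main fit shares its spread estimate over all 24 libraries, with a common coefficient of variation (relative spread between libraries) of 0.169. Within the groups compared the coefficient was larger, 0.214 at 12 weeks and 0.177 at 3 days. The p-values of the main fit may therefore be too small for this comparison.

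Most of the called changes were small. The median size was 1.32-fold among the higher genes, with quartiles of 1.21 and 1.62, and 1.41-fold among the lower genes, with quartiles of 1.24 and 1.77. Changes smaller than 1.2-fold made up 529 of the rises and 365 of the falls. A difference of over 2-fold was seen in 324 higher (13.4%) and 408 lower genes (17.7%), and a difference of over 4-fold in 51 and 54. Of the genes over 2-fold apart, 121 higher and 177 lower ones had a mean log2 CPM under 0. Under 21 alternatives of processing, 231 to 386 genes were over 2-fold higher and 275 to 469 over 2-fold lower. Both lowest counts came from a filter of at least 1 CPM in at least 6 libraries. Complete gain or loss of a transcript was nearly absent from the table: no ID had counts in all 6 libraries at 12 weeks and none in any at 3 days, and 1 ID had the opposite pattern.

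**Figure D2:**
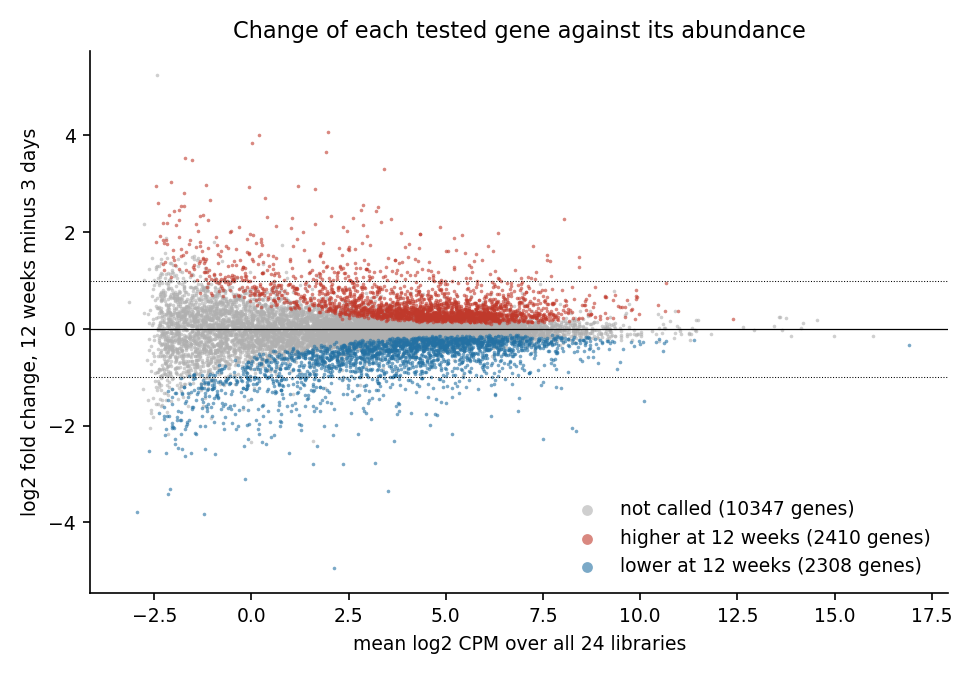
Log2 fold change of each tested gene (12 weeks minus 3 days, vertical axis) against its mean log2 CPM over all 24 libraries (horizontal axis), with 2410 genes called higher in red, 2308 called lower in blue and 10347 not called in grey. Dotted lines mark 2-fold changes, and genes beyond them lie mostly at low abundance.

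For many genes the 2 times did not overlap at all. In 745 genes every 12 week library lay above every 3 day library in CPM, and in 776 every 12 week library lay below. These are 10.1% of the tested genes in all, 4.95% in the upward and 5.15% in the downward direction. Among the called genes the libraries were apart in this way for 743 rises (30.8%) and 772 falls (33.4%). The remaining called genes differed in their means while single libraries of the 2 times still crossed.

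Size and frequency of the called changes went opposite ways with abundance. Genes with few counts need a larger change to be called. The sizes of called genes therefore do not show whether true changes were larger at low abundance. Of the 2184 genes with a mean log2 CPM over 6, 42.6% were called, with a median size of 1.25-fold. Of the 2418 genes under 0, 15.4% were called, with a median size of 2.47-fold. The balance of directions also shifted with abundance. Among genes under 0, 6.4% were higher and 9.1% lower at 12 weeks, and among genes over 6, 23.8% were higher and 18.9% lower. The middle range, from 2 to 4, held nearly equal shares of 16% and 16.4%. Upper quartile scaling in place of TMM moved the total to 2243 higher and 2439 lower genes.

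**Figure D3:**
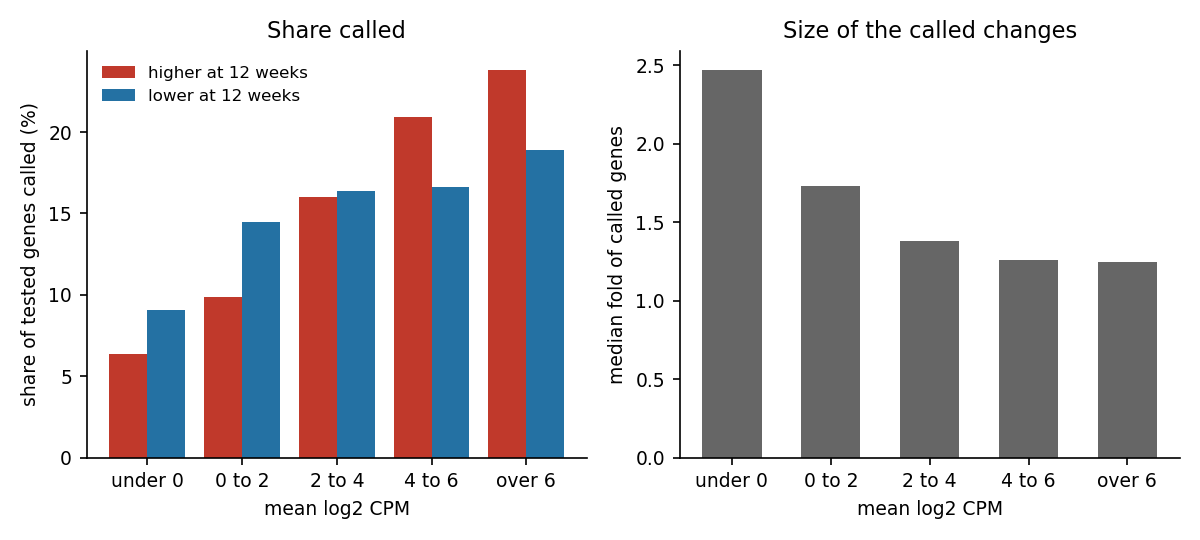
Left, share of tested genes called higher (red) or lower (blue) at 12 weeks than at 3 days (%), by mean log2 CPM over all libraries. Right, median fold of the called genes in the same ranges, which falls from 2.47 under a log2 CPM of 0 to 1.25 over 6.

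The most abundant transcript of the ventricle took a smaller part of the library at 12 weeks. The same gene ID held the largest count in all 24 libraries. Its share of the counts was 9.56% at the lowest, 11.1% at the median and 12.3% at the highest at 12 weeks, against 12.0%, 13.3% and 15.4% at 3 days. Only 1 library at 12 weeks lay above the lowest at 3 days, and sham lay between 12.1% and 13.3%. The mean was 2.56 percentage points lower at 12 weeks, where the SD over 6 libraries was 1.10 and 1.17 points at 12 weeks and 3 days (difference as coded -2.56, exact permutation p = 0.00433, adjusted p = 0.0216 over the same 5 tests). Without the least correlated library of each group the difference was -2.81 points. In the edgeR fit its log2 fold change was -0.32 (SE 0.108, adjusted p = 0.0248). The 10 most abundant genes of each library together held 32.4 ± 2.11% of the counts at 12 weeks and 34.7 ± 3.29% at 3 days, a difference that did not pass (exact permutation p = 0.171, adjusted p = 0.427). Of the 10 genes with the highest mean CPM over all 24 libraries, only the first was called. Among the 100 highest by that mean, 20 were higher and 16 lower, or 36%. This compares with 31.3% of all tested genes and 42.6% of those with a mean log2 CPM over 6.

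Sham showed where the 2 times stood relative to the starting level. For each called gene the mean log2 CPM of sham was placed on a line from the 3 day mean to the 12 week mean. Sham lay between the 2 means in 3309 of the 4718 called genes (70.1%), against 41.6% of all tested genes. In these genes the 3 day mean and the 12 week mean lay on opposite sides of the sham mean. No difference from sham was required, so a mean very close to sham also counted. How many of these genes differed from sham at either time was not counted. In 826 genes sham lay beyond the 3 day mean and in 583 beyond the 12 week mean. Choosing genes for a difference between 3 days and 12 weeks favours any other group in between, so these counts describe the called genes and carry no test.

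Sham was nearer to the 3 day mean in 1262 rises (52.4%) and in 1357 falls (58.8%), against 52.1% of all tested genes. Over all called genes the share was 55.5%, and 56.9% without the least correlated library of each group. With single libraries left out it ran from 51.9% (without 3 day replicate 3) to 57.9% (without 12 week replicate 2). The lowest of these did not exceed the 52.1% of all tested genes in the main fit. Among genes over 2-fold apart, sham was nearer to 3 days in 193 of 324 higher genes (59.6%) and 265 of 408 lower genes (65.0%). The separate comparisons with sham share the sham libraries, and their values for the called genes stand side by side. Genes higher at 12 weeks had a median log2 fold change against sham of -0.17 at 3 days and 0.21 at 12 weeks. Genes lower at 12 weeks had medians of 0.20 and -0.26. For the genes over 2-fold higher the medians were -0.46 and 0.94, and for those over 2-fold lower 0.51 and -0.84.

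The 1 day mean was placed on the same line. The caution on the choice of genes given for sham holds here too, and these values carry no test. The 1 day mean was nearer to 3 days than to 12 weeks in 3855 of the 4718 called genes (81.7%), against 68.2% of all tested genes. On the line from 3 days (0) to 12 weeks (1), its median position was 0.13 in the called genes and 0.14 in all tested genes, and that of sham was 0.43 and 0.45. The median positions of the called genes were thus close to those of the whole table, while the shares differed. The whole table includes the called genes. Its 10347 genes not called had a median size of 1.1-fold, and a position on so short a line is unstable. The likeness of the medians therefore says little. For genes over 2-fold lower at 12 weeks the share nearer to 3 days was 91.9%, and for those over 2-fold higher 85.2%. Without the least correlated library of each group, 77.2% of the called genes had the 1 day mean nearer to 3 days.

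**Figure D4:**
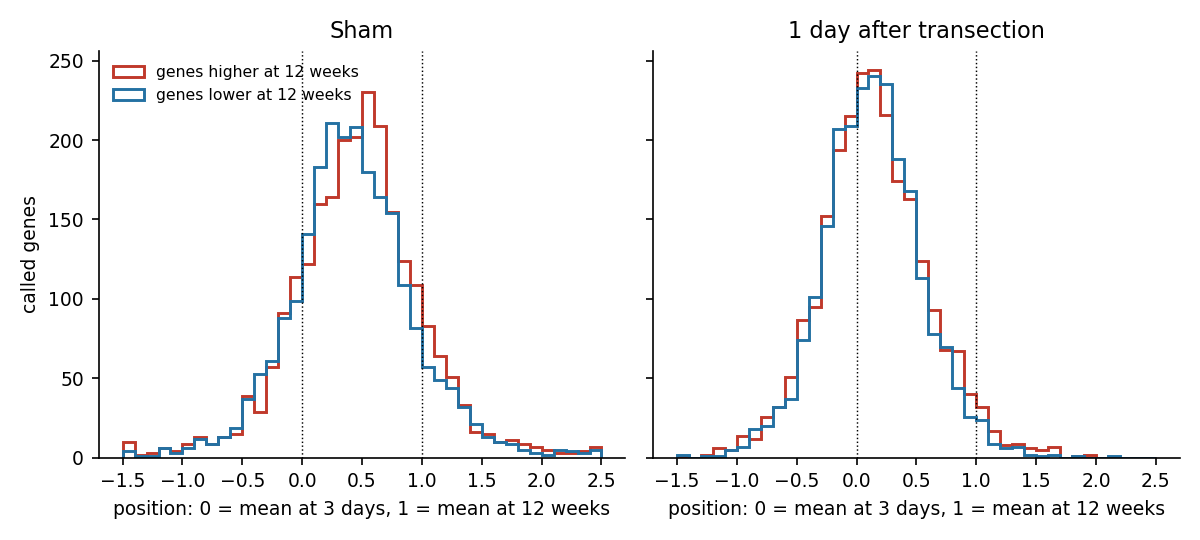
Number of called genes (vertical axis) by the position of the sham mean (left) or the 1 day mean (right) on a line where 0 is the 3 day mean and 1 the 12 week mean of log2 CPM (horizontal axis), for genes higher (red) and lower (blue) at 12 weeks. Values beyond the axis ends are counted in the end bins, and the median lies at 0.43 for sham and 0.13 for 1 day.

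The spread between libraries of a group was larger at 12 weeks and at 3 days than in sham, and 1 library in each of these SCI groups carried much of the distance from the group median. The biological coefficient of variation, the relative spread between libraries beyond counting noise, was 0.214 at 12 weeks, 0.177 at 3 days, 0.153 at 1 day and 0.124 in sham. The median SD of a gene's log2 CPM was 0.234, 0.212, 0.170 and 0.156 in the same order. Without 12 week replicate 3 and 3 day replicate 5, the coefficient was 0.160 at 12 weeks and 0.155 at 3 days, and the median SD 0.192 and 0.178. Leaving out the least correlated library lowers the spread by itself. These values cannot be set against sham and 1 day, which kept all their libraries. The SD was larger at 12 weeks than at 3 days in 56.2% of the tested genes, in 60.5% of the genes higher at 12 weeks and in 57.5% of the lower ones. Without those libraries the shares were 56.5%, 55.8% and 59.4%. These spreads were not tested against each other.

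The strongest rises leaned on 1 library. Among the 51 genes over 4-fold higher at 12 weeks, replicate 3 had the highest level in 34 (66.7%), and among the 324 over 2-fold higher in 188 (58.0%), against 27.2% of all tested genes. Without it 250 genes were over 2-fold higher. For the falls the corresponding group is 3 days, where replicate 5 was the highest library in 19 of the 54 genes over 4-fold lower (35.2%) and in 131 of 408 over 2-fold lower (32.1%), against 27.0% of all tested genes. With both libraries left out, 46 of the 51 rises and 51 of the 54 falls of over 4-fold were called in the same direction. The median log2 fold change of the 51 rises moved from 2.36 to 2.04 and that of the 54 falls from -2.28 to -2.22.

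The 4 printed genes had the largest rises and falls among the 698 higher and 688 lower genes that were called, averaged 1 or more in log2 CPM and did not overlap between the times. The percentage of tested genes called was 17.5% for 3 days against sham and 22.1% for 12 weeks against sham.

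ENSRNOG00000007545 showed the largest rise, which was late, and no change against sham was called at 3 days. At 3 days its level was 0.811 CPM at the lowest, 1.67 at the median and 4.25 at the highest, and in sham it was 1.79, 2.42 and 3.90 CPM. At 12 weeks it was 5.99, 19.3 and 136 CPM, so the lowest late library lay above the highest early one, as the rule for printed genes required. Its log2 fold change from 3 days to 12 weeks was 4.06 (SE 0.621, edgeR adjusted p = 3.47e-05). The level of 136 CPM belonged to replicate 3, and without that library the log2 fold change was 2.89 (edgeR adjusted p = 2.17e-05). Against sham the value was -0.28 at 3 days (SE 0.618, edgeR adjusted p = 0.805) and 3.78 at 12 weeks (edgeR adjusted p = 9.22e-05).

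ENSRNOG00000003538 fell early and was higher again late. In sham it ranged widely, with 2.19 CPM at the lowest, 7.62 at the median and 16.2 at the highest. At 3 days the libraries held 0.761, 1.47 and 2.56 CPM, and at 12 weeks 3.16, 7.66 and 82.1 CPM. The 12 week median was thus close to that of sham, and the 3 day libraries overlapped only the lowest sham libraries. The log2 fold change from 3 days to 12 weeks was 3.66 (SE 0.681, edgeR adjusted p = 0.000264), and without 12 week replicate 3, which held the 82.1 CPM, it was 2.30 (edgeR adjusted p = 0.000625). Against sham it was -2.31 at 3 days (edgeR adjusted p = 0.0175) and 1.35 at 12 weeks (edgeR adjusted p = 0.103, not called).

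ENSRNOG00000019183 showed the largest fall, after an acute rise. Its sham level was 1.73 CPM at the lowest, 2.21 at the median and 2.98 at the highest. At 3 days it was 8.06, 23.0 and 78.6 CPM, all above sham, and at 12 weeks 0.253, 0.873 and 2.05 CPM. At 1 day it already stood at 3.90 to 18 CPM, above every sham library. The log2 fold change from 3 days to 12 weeks was -4.94 (SE 0.541, edgeR adjusted p = 1.08e-06). Against sham it was 3.74 at 3 days (edgeR adjusted p = 1.37e-05) and -1.21 at 12 weeks (edgeR adjusted p = 0.115, not called).

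ENSRNOG00000046377 fell late, to below its sham level. At 3 days it held 10.3 CPM at the lowest, 17.0 at the median and 24.4 at the highest. In sham it held 7.45, 12.3 and 15.7 CPM. Only 3 day replicate 3, at 10.3 CPM, lay within the sham range. Every other 3 day library, from 16.2 CPM up, lay above that range. At 12 weeks the gene held 1.30, 2.79 and 3.44 CPM, below every library of the other groups. The log2 fold change from 3 days to 12 weeks was -2.77 (SE 0.274, edgeR adjusted p = 5.03e-07). Against sham it was 0.55 at 3 days, which was not called (edgeR adjusted p = 0.126), and -2.22 at 12 weeks (edgeR adjusted p = 5.82e-06). Of the 4 printed genes it had the smallest SE.

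**Figure D5:**
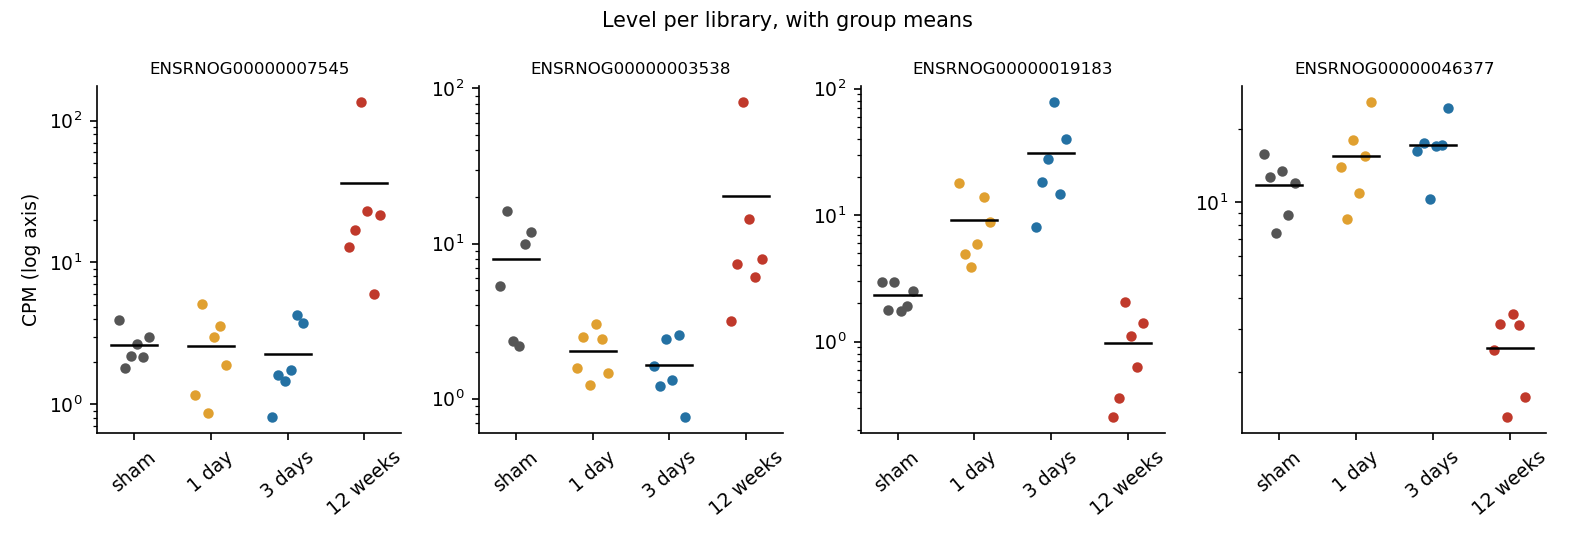
CPM of each library (points, log axis) and the group mean (line) for the 4 printed gene IDs in sham, at 1 day, at 3 days and at 12 weeks. In each panel the 6 libraries at 12 weeks lie wholly above or wholly below the 6 at 3 days, as the rule for choosing these genes required.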

How the data were processed

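RNA of 24 left ventricular samples was depleted of ribosomal RNA and sequenced as strand-specific paired-end libraries, per the labels' protocols. The deposited values are raw counts per gene. The tools were featureCounts 2.0.6, STAR 2.7.11a and FastQC 0.12.1, and the build mRatBN7.2, per the submitters' processing notes. How strand and shared reads were handled, and the annotation release, are not given in the sources read, so overlapping genes and near-identical copies may share reads. The table has 26166 lines for 23098 IDs, and 781 IDs stand on several identical lines, so each ID was used once.

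Counts were analysed with edgeR 4.0.16 in R 4.3.3: filterByExpr by group (15065 genes kept), TMM scaling, 1 model over all 24 libraries with a term per group (20 residual degrees of freedom), and the quasi-likelihood F test of 12 weeks minus 3 days, two-sided, with Benjamini-Hochberg adjustment. CPM are counts scaled to the TMM-adjusted library size, and log2 CPM use a prior count of 2. Single values per library were compared by their means with exact permutation tests, with 0.00216 as the smallest possible p. Pairs of replicates at 3 days and 12 weeks differed by 17.3 to 108.6 in chi-square per degree of freedom, and sham pairs by 12.6 to 30.6, well above sampling noise. In counts from 1 to 200, 58.1 to 61.1% were even numbers in every library, which leaves unclear whether each count is an independent fragment. The test was tried on simulated counts of 15065 genes for this comparison. It recovered 53.0% of 83 changes of 1.5-fold, 81.7% of 60 of 2-fold and 93.0% of 57 of 4-fold, with 8 false calls among 154. Far fewer genes were changed there than were called in the data, and each gene had the same spread in every group. These rates need not hold for the real counts.

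The printed genes follow a rule: a call, a mean log2 CPM of at least 1, no overlap between the groups, and the 2 largest rises and falls. The comparison and the lists were chosen with earlier results of these data known. Gene lists and cell type markers need symbols, which could not be matched, and were not run. Alternatives were other scalings, filters and tools (DESeq2 1.42.0, limma 3.58.1), a fit of only the 2 groups, a replicate block and leaving out each library. The tests of library shares, the positions of sham and 1 day and the joint removal of 2 libraries were chosen after seeing the data.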

Additional observations from a re-analysis of the deposited data

Results flagged for a closer look

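Within groups of 6 libraries, 5 of 33 sets of values held 1 library whose distance from the nearest other exceeded 0.625 of the group's range. Chance alone flags about 1 in 20 independent sets that were not chosen by their values. That rate does not apply to the printed genes, chosen for their large changes, and the flags come from the same 2 libraries. At 12 weeks replicate 3 was the highest library of ENSRNOG00000007545 with 136 CPM and of ENSRNOG00000003538 with 82.1 CPM, and it was farthest from the group median in 37.2% of genes. At 3 days replicate 5 had the lowest median correlation with its group, 0.971, and was farthest from the group median in 36.3% of genes.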

How the results depend on the processing

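The counts of 2410 higher and 2308 lower genes stayed within 1.5 times of these values under all 21 alternatives, at 1652 to 2565 and 1628 to 2476. The lowest counts came from the fit of the 12 libraries alone and the highest from DESeq2. Leaving out single libraries gave 2096 to 2394 higher and 2100 to 2327 lower genes, and 1653 to 1971 genes whose libraries did not overlap, against 1521 with all libraries. That last range lies above the full count because fewer libraries overlap less often. The 4 printed genes kept their direction and their call under all 21 alternatives. The difference in depth of -2010600 counts changed sign without 12 week replicate 1 (1269491) and without 3 day replicate 2 (1099913), with a range of -5342025 to 1269491 over single libraries left out, and no exact permutation p fell under 0.42. With the replicate block 2260 genes were higher and 2213 lower, and 4351 of the 4718 calls were shared in direction. Libraries of the same number at 3 days and 12 weeks deviated from their group means with correlations of -0.178 to 0.137. No pairing by number was seen, though these few values cannot settle whether the numbers pair the samples. The simulations recovered 53.0% of 1.5-fold changes, with few genes changed and no other depth tried. Changes of this size or smaller among the genes not called may have been missed, at a rate that was not tested.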
